A study of Schmidtea mediterranea with 100 samples.

Results

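The subject is a group of 145 transcripts of the planarian flatworm Schmidtea mediterranea that carry an identifier but no gene name and that were most abundant in the gate of replicating and dividing cells, S/G2/M. They were chosen from 67386 transcripts in the bulk table. Of these, 67222 were counted as unnamed because their identifier begins with SmedASXL_, smed or dd_Smed. That count takes in smed000320_IQGAP, which does carry a name and is not a member. A member had at least 50 CPM in S/G2/M, where CPM is reads per 1000000 of the library's column total, and its S/G2/M level was at least 2 times its level in each of the other 3 gates. Of the 2643 unnamed transcripts with at least 50 CPM in S/G2/M, 145 (5.49%) met the ratio. The bulk values chose the members, so their excess in S/G2/M is a description and supports nothing further.

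Cells came from whole bodies of animals of the asexual clonal strain CIW4, described as wild type, that were grown on beef liver. All cells were dissociated, stained with Hoechst, which binds DNA, and pyronin Y, which binds RNA, and sorted by FACS. There was 1 bulk library each for the gates S/G2/M, G1, RNA-low and PM, and there were 96 single cells of the RNA-low gate, which count as 1 sample. What PM stands for is not given in the labels, nor are animals or pools. With 1 library per gate, no difference between gates has a replicate check and no p-value was computed.

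Neoblasts are the dividing stem cells of adult planarians, and they renew all tissues. Their passage through the cell cycle brings on genes for DNA replication in S phase, such as PCNA, the sliding clamp of DNA polymerase, and mcm2, a subunit of the replicative helicase. Mitotic cyclins such as CyclinB2 accumulate towards division. Cells that leave the neoblast state for the epidermis pass through a stage marked by prog-1 and prog-2 transcripts. None of the 145 members can be tied to these processes by name, because the files give identifiers only, and no sequences were used here.

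The bulk libraries held 47338591 to 74968402 reads. Low counts per transcript peaked at about 21 reads in S/G2/M cells, 9 in G1, 5 in RNA-low cells and 25 in PM. Each peak was taken as the number of reads per starting fragment, which was not tested. Intervals rest on fragments estimated by dividing by these numbers. They are exact 95% intervals and cover counting error only. The replication marker PCNA was highest where the gate's label places it. It stood at 393 CPM in S/G2/M cells, 109 in G1, 42.2 in RNA-low cells and 36.4 in PM, and the summed prog-1 and prog-2 family at 5645 CPM in S/G2/M cells, 32609 in G1, 1926 in RNA-low cells and 20095 in PM. Ribosomal RNA took 21.9% of reads in S/G2/M cells, 16.8% in G1, 16.9% in RNA-low cells and 35.1% in PM, and its part in the differences with PM was not tested. Of the markers listed for other lineages, vim-1 (epidermis) was at 9.40 CPM in S/G2/M, titin (muscle) at 0.454 and the neuronal pair COE and elav-2 at 15.5 in sum. The porcnA and porcn-B pair, listed for the intestine, summed to 145 CPM in S/G2/M, against 128 in G1, 142 in RNA-low cells and 103 in PM. Its 2 genes went opposite ways. porcnA was highest in S/G2/M, at 118 CPM against 81.1 in G1, 98.3 in RNA-low cells and 69.7 in PM. porcn-B was lowest in S/G2/M, at 27.7 CPM against 47.1 in G1, 43.4 in RNA-low cells and 33.0 in PM. The NKX2.1 pair, listed for cathepsin-positive and parenchymal cells, summed to 50.6 CPM in S/G2/M, against 64.8 in G1, 99.5 in RNA-low cells and 48.3 in PM. The part of these other cells in the results was not tested. In bulk libraries, fewer cells of a type and less RNA per cell cannot be told apart.

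Together the 145 members took 2.97% of the reads in S/G2/M cells, 1.20% in G1, 0.801% in RNA-low cells and 0.553% in PM. Their summed level was 29665 CPM in S/G2/M (29486 to 29844), against 12012 in G1, 8005 in RNA-low cells and 5532 in PM. The sum in S/G2/M was thus 2.47 times that in G1, 3.71 times that in RNA-low cells and 5.36 times that in PM. Transcript lengths are not given, so levels of different transcripts are not per length and their order says nothing on relative molecule numbers. For a single member, the median level was 89.1 CPM in S/G2/M cells, 35.6 in G1, 20.9 in RNA-low cells and 17.6 in PM. The ratio of S/G2/M to G1 had the narrowest spread, with a median of 2.53 and a range of 2.01 to 5.11. Over PM the median ratio was 6.45 and the range 2.34 to 87.8, and over RNA-low it was 4.75 and 2.01 to 595. For 86 of the 145, the lower bound of the interval was also at least 2 against every other gate.

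**Figure D1:**
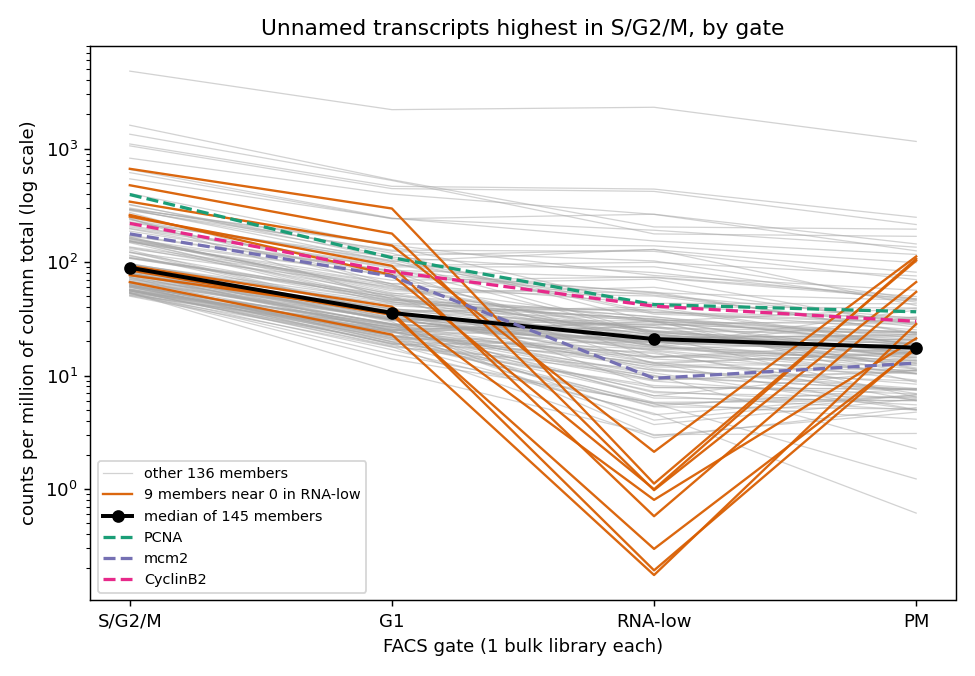
Level of each member (thin lines, CPM of the column total, log scale) in the 4 bulk libraries, with the median member and the named genes PCNA, mcm2 and CyclinB2. Most lines step down from S/G2/M through G1, and 9 members drop to between 0.174 and 2.13 CPM in RNA-low while staying above 17 CPM in the other gates.

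The order of the gates was mostly the same. S/G2/M was followed by G1, RNA-low and PM for 92 members, by G1, PM and RNA-low for 33, and by RNA-low, G1 and PM for 17. PM was the second gate for the other 3 members, SmedASXL_012786, SmedASXL_009683 and SmedASXL_061408. The last of these was nearly level outside S/G2/M, at 52.9 CPM in S/G2/M against 20.7 in G1, 21.8 in RNA-low cells and 22.1 in PM.

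The 10 members with the most reads in S/G2/M made up 44.6% of the summed level there. SmedASXL_018693 stood at 4817 CPM in S/G2/M cells, 2204 in G1, 2314 in RNA-low cells and 1157 in PM. It lay close to the ratio threshold, at 2.08 times RNA-low (2.04 to 2.12). The consecutive identifiers SmedASXL_013831 and SmedASXL_013830 had nearly the same profile. The first was at 1608 CPM in S/G2/M cells, 532 in G1, 204 in RNA-low cells and 195 in PM, and the second at 1339 CPM in S/G2/M cells, 524 in G1, 177 in RNA-low cells and 168 in PM. Whether these transcripts share sequence is not known here, and the counting could have divided reads between them.

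SmedASXL_004476 and SmedASXL_072287 were another pair with like levels. SmedASXL_004476 had 1098 CPM in S/G2/M cells, 465 in G1, 440 in RNA-low cells and 248 in PM. SmedASXL_072287 had 1057 CPM in S/G2/M cells, 444 in G1, 420 in RNA-low cells and 214 in PM. In both, G1 and RNA-low were almost equal and PM was the lowest gate. SmedASXL_012448 was at 823 CPM in S/G2/M cells, 397 in G1, 263 in RNA-low cells and 126 in PM, and SmedASXL_005855 at 654 CPM in S/G2/M cells, 244 in G1, 154 in RNA-low cells and 117 in PM. SmedASXL_006949 had 614 CPM in S/G2/M cells, 241 in G1, 264 in RNA-low cells and 144 in PM, and SmedASXL_010220 had 541 CPM in S/G2/M cells, 242 in G1, 191 in RNA-low cells and 135 in PM. None of these 4 was below 100 CPM in any gate. The last of the 10, SmedASXL_009682, was different and had 664 CPM in S/G2/M cells, 296 in G1, 1.12 in RNA-low cells and 103 in PM.

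The members that stood furthest above their second gate were of lower level. SmedASXL_017550 had 241 CPM in S/G2/M cells, 47.2 in G1, 33.0 in RNA-low cells and 18.0 in PM, which was 5.11 times G1 (4.47 to 5.88). SmedASXL_001893 had 53.6 CPM in S/G2/M cells, 10.9 in G1, 3.01 in RNA-low cells and 3.08 in PM, at 4.93 times G1 (3.71 to 6.66). SmedASXL_002319 had 273 CPM in S/G2/M cells, 63.8 in G1, 12.7 in RNA-low cells and 16.0 in PM, at 4.28 times G1. In all 3, G1 was the second gate and RNA-low and PM lay well below it.

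SmedASXL_006243 had 240 CPM in S/G2/M cells, 61.4 in G1, 24.4 in RNA-low cells and 14.3 in PM. The 6 others among the 10 largest ratios were SmedASXL_006061, SmedASXL_006883, SmedASXL_016052, SmedASXL_006092, SmedASXL_079762 and SmedASXL_014799, at 3.45 to 3.79 times G1. For PCNA the same ratio was 3.60. The widest gap to PM belonged to SmedASXL_017518, at 53.8 CPM in S/G2/M against 0.613 in PM, a ratio of 87.8 whose interval of 18.1 to 4043 shows how few fragments lay behind the PM value.

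At the edge of the ratio rule, SmedASXL_011777, SmedASXL_009161 and SmedASXL_008846 were just inside at 2.01 times their second gate, and SmedASXL_008246, SmedASXL_012796 and SmedASXL_006263 just outside at 1.97 to 2.00. By level, SmedASXL_006262 was inside at 50.0 CPM, followed by SmedASXL_014989 and SmedASXL_006457 at 50.7 and 51.1. Just outside were SmedASXL_014701, SmedASXL_008869 and SmedASXL_016175 at 48.8 to 49.8 CPM. There was no gap at either threshold. The number of members also moved with the scaling, to 329 under trimmed mean of M values (TMM) and 524 under median-of-ratios scaling, and each of these larger sets held all 145. Library totals that leave out ribosomal RNA gave 214, which held 143 of the 145.

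Of the 35 rows with a name or another kind of identifier and at least 50 CPM in S/G2/M, 5 (14.3%) met the same rule. They were the replication genes PCNA and mcm2, the mitotic cyclin CyclinB2, and the early epidermal progeny transcripts prog-1e and prog-1j. CyclinB2 stood at 219 CPM in S/G2/M cells, 82.3 in G1, 40.9 in RNA-low cells and 30.0 in PM, and mcm2 at 177 CPM in S/G2/M cells, 75.0 in G1, 9.44 in RNA-low cells and 12.9 in PM. For prog-1e the levels were 68.4 CPM in S/G2/M cells, 30.6 in G1, 0 reads in RNA-low and 18.7 in PM, and for prog-1j 74.0 CPM in S/G2/M cells, 26.1 in G1, 0.436 in RNA-low cells and 10.7 in PM. The 3 cell cycle genes thus kept a measurable level in RNA-low, and the 2 progeny transcripts were at or near 0 there.

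The median profile of the 145 members was set against 118 named rows with at least 5 CPM in a gate, by Euclidean distance over the 4 centred log2 levels. CyclinB2 was nearest, at a distance of 0.17. It was followed by tdrd112, a Tudor gene of the PIWI pathway (0.67), the DNA damage kinase gene ATM (0.70), PCNA (0.73) and bruli, an RNA-binding gene of neoblasts (0.79). The profile is built from the same 4 values that chose the members, so the nearness of CyclinB2 and PCNA, which meet the rule, is partly built in. The likeness is a description. Meeting the rule did not by itself bring a row near, as mcm2 lay at 1.68, prog-1j at 3.47 and prog-1e at 4.55. Of the cell cycle and neoblast lists, 2 of 2 replication genes and 1 of 2 G2 and mitosis genes met the rule, but 0 of 2 DNA damage genes and 0 of 4 neoblast genes did. PLK of the mitosis list, at 2.32 CPM in S/G2/M, and ATM, at 45.9, were under the level of 50 CPM and could not meet the rule at any ratio. The nearest miss was piwi-1, a PIWI gene of neoblasts, at 3208 CPM in S/G2/M cells, 1440 in G1, 1651 in RNA-low cells and 542 in PM, which was 1.94 times RNA-low.

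The contrasts among the other 3 gates were not part of the rule, although they use the same libraries and the rule caps the level in each of these gates, so they are not independent of it. RNA-low against G1 asks whether cells of low RNA content carried the members at the relative level of G1 cells. At least 2-fold lower in RNA-low were 66 of 145 members (45.5%), against 11.0% of all 12211 transcripts that reached 5 CPM in one gate or the other, and 3.68% of the 2498 other unnamed transcripts with at least 50 CPM in S/G2/M. At least 2-fold higher in RNA-low were 0 members, against 6.04% of all transcripts and 1.28% of the 2498. That 0 was largely fixed in advance, because the rule holds RNA-low to at most S/G2/M divided by 2. Only SmedASXL_017550, SmedASXL_001893 and SmedASXL_002319, at 5.11, 4.93 and 4.28 times G1 in S/G2/M, left room for such an excess over G1. The median log2 ratio of the members was -0.91, and that of all transcripts 0.01, after 0.5 CPM had been added to each level.

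G1 against PM separated the members further. At least 2-fold higher in G1 were 96 of 145 (66.2%), against 11.7% of all 13184 transcripts tested and 6.81% of the 2498. At least 2-fold lower in G1 were 0 members, against 13.1% of all and 0.921% of the 2498. The rule caps PM in the same way, so this 0 too was largely fixed in advance. The members' median log2 ratio was 1.25, and that of all transcripts 0.36. RNA-low and PM were close to each other. Of 142 members with at least 5 CPM in either of these gates, 23 (16.2%) were at least 2-fold higher in RNA-low, against 16.6% of all 13145 transcripts and 12.4% of the 2498. At least 2-fold lower in RNA-low were 10 (7.04%), against 18.5% of all and 2.88% of the 2498. The median log2 ratio was 0.35 for these 142 members, 0.35 for all transcripts and 0.53 for the 2498. Over all 145 members it was 0.34, and -0.01 with library totals that leave out ribosomal RNA.

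**Figure D2:**
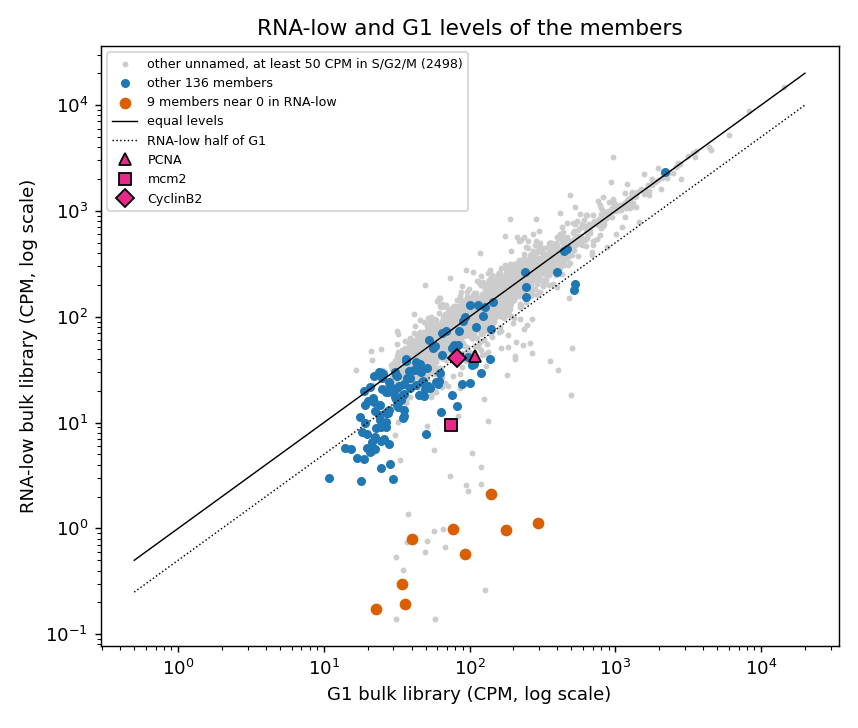
RNA-low level against G1 level (CPM, both log scales) for the 145 members, the 2498 other unnamed transcripts with at least 50 CPM in S/G2/M, and PCNA, mcm2 and CyclinB2. All 66 members at least 2-fold lower in RNA-low lie below the dotted line, and 9 of them form a separate lower band at 0.00376 to 0.0198 of their G1 level.

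By RNA-low as a fraction of G1, the members spread over a wide range with 1 gap. The fraction was 1.00 to 1.28 for 18 members, 0.511 to 0.986 for 60, and 0.0991 to 0.498 for 58. No member lay between 0.0991 and 0.0198, and 9 lay below. Among the named genes the fraction was 0.386 for PCNA, 0.126 for mcm2, 0.497 for CyclinB2 and 1.15 for piwi-1. Of the other unnamed transcripts with at least 50 CPM in S/G2/M, 49.3% were at 1 or above, 47.0% between 0.5 and 1, and 0.761% below 0.05. That boundary was set after the values had been seen.

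The members highest in RNA-low relative to G1 were SmedASXL_009993, SmedASXL_001399, SmedASXL_006219, SmedASXL_006967 and SmedASXL_000861. SmedASXL_009993 had 129 CPM in RNA-low cells against 101 in G1, beside 292 in S/G2/M cells and 41.4 in PM. The log2 ratio of RNA-low to G1 was 0.35 for SmedASXL_009993, 0.33 for SmedASXL_001399, 0.30 for SmedASXL_006219, 0.23 for SmedASXL_006967 and 0.19 for SmedASXL_000861. All 5 had their second-highest level in RNA-low, and none of the differences reached 2-fold.

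At the other end were 9 members that were near 0 in the RNA-low library. Besides SmedASXL_009682, they included SmedASXL_009684, at 0.976 CPM in RNA-low cells against 178 in G1, beside 475 in S/G2/M cells and 66.7 in PM. SmedASXL_009683 had 0.174 CPM in RNA-low cells against 22.9 in G1, beside 66.5 in S/G2/M cells and 28.5 in PM. These 3 identifiers are consecutive, and reads could have been divided among them if the transcripts are related. SmedASXL_004096 had 0.575 CPM in RNA-low cells against 92.6 in G1, beside 251 in S/G2/M cells and 54.6 in PM. SmedASXL_002991 had 0.192 CPM in RNA-low cells against 36.2 in G1, beside 76.6 in S/G2/M cells and 17.9 in PM.

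The 4 remaining ones showed the same shape. SmedASXL_012786 had 0.993 CPM in RNA-low cells against 77.0 in G1, beside 261 in S/G2/M cells and 107 in PM. SmedASXL_003140 had 2.13 CPM in RNA-low cells against 140 in G1, beside 341 in S/G2/M cells and 112 in PM. For SmedASXL_002399 and SmedASXL_006858 the RNA-low levels were 0.296 and 0.802 CPM, against 34.2 and 40.4 CPM in G1. S/G2/M exceeded RNA-low 595-fold for SmedASXL_009682 (342 to 1102), 487-fold for SmedASXL_009684 (276 to 995) and 115-fold for SmedASXL_006858 (61.3 to 260). The log2 ratio of RNA-low to G1, with 0.5 CPM added, was -7.52 for SmedASXL_009682 and -5.73 for SmedASXL_002991, whose fractions without that addition were 0.00376 and 0.00530. In RNA-low, 3 fragments correspond to 0.261 CPM, so the values of SmedASXL_009683 and SmedASXL_002991 rest on fewer than 3 estimated fragments. Without these 9 members the summed level was 27353 CPM in S/G2/M, against 11094 in G1, 7998 in RNA-low cells and 5004 in PM.

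The named rows with at least 50 CPM in S/G2/M and RNA-low below 0.05 of G1 were prog-1e, prog1g, prog-1j and prog2c, all of the early epidermal progeny family. The fraction was 0.00970 for prog1g and 0.0167 for prog-1j, and prog-1e had 0 reads in RNA-low. For prog2c it was 0.0444, but that transcript had 1493 CPM in S/G2/M against 8535 in G1.

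The rule did not use the RNA-low single cells. It does cap the bulk level of their gate, so detection in them is not independent of the rule. Of the 96 cells, 79 with at least 500 detected transcripts were kept, with a median of 2075 detected transcripts and 152963 reads other than ribosomal RNA, and 17 were left out, with a median of 389 transcripts and 88319 such reads. Smart-seq2 uses no molecular identifiers, so a read is not a molecule. At least 1 kept cell had reads of 133 of the 145 members (91.7%), against 99.1% of all 2643 unnamed transcripts with at least 50 CPM in S/G2/M. The other 12 members are not listed in the single-cell table, which holds only transcripts with at least 1 read in a cell. At least 10 kept cells had reads of 26 members (17.9%), against 53.0% of the 2643. The median was 3 kept cells for the members and 10 for the 2498 others of that level. Lower detection of the members can follow from the cap on their RNA-low level alone.

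The number of cells also followed the RNA-low bulk level. Among transcripts at 20 to 50 CPM in the RNA-low bulk library, the 48 members were read in a median of 3 kept cells and the 2877 other unnamed transcripts in 5. At 5 to 10 CPM the medians were 1 for 19 members and 3 for 2408 others, and at 10 to 20 CPM they were 3 for both. At 100 to 200 CPM they were 13 for 8 members and 12 for 860 others, and at 200 to 500 CPM 30 for 5 members and 19 for 430 others. At 2.5 to 5 CPM the medians were 1 for 7 members and 2 for 3367 others, and at 50 to 100 CPM 5 for 13 members and 7 for 1699 others. From 2.5 to 100 CPM the members' median was thus the lower in every band but 10 to 20 CPM. It was the higher from 100 CPM upwards and below 2.5 CPM.

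**Figure D3:**
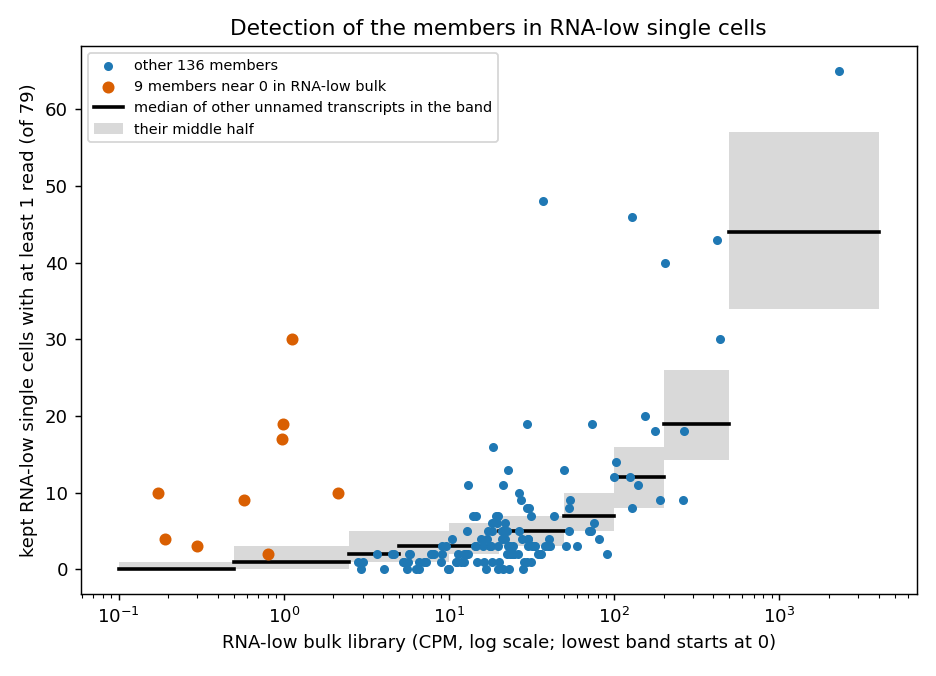
Number of the 79 kept RNA-low single cells with at least 1 read of each member, against its level in the RNA-low bulk library (CPM, log scale), with the median (line) and the 25th to 75th percentile (grey) of the other unnamed transcripts in bands of that level. The 9 members near 0 in the bulk library were read in 2 to 30 cells, and the medians of the other transcripts in their bands were 0 and 1.

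The 8 members read in the most kept cells are set beside the 17 cells left out, which are shallower and have fewer detected transcripts. For scale, reads of piwi-1 were found in 51 of 79 kept cells and 6 of 17 left out. SmedASXL_018693 was read in 65 of 79 kept cells (82.3%, 72.1 to 90.0) and in 6 of 17 left out (35.3%). SmedASXL_001731 was read in 48 kept cells (60.8%, 49.1 to 71.6) and 9 left out (52.9%). It had only 37.2 CPM in the RNA-low bulk library, and its shares were alike in both kinds of cells. At least 5 reads of it were found in 25 kept cells, and a single cell supplied 1171 of its 1845 pooled reads. Whether its reads reflect expression in these cells was not tested. SmedASXL_046817 was read in 46 kept cells and 2 left out, SmedASXL_072287 in 43 and 2, SmedASXL_004476 in 30 and 2, SmedASXL_013831 in 40 and 0, and SmedASXL_005855 in 20 and 0. Their shares were lower among the cells left out.

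The eighth, SmedASXL_009682, was read in 30 kept cells (38.0%, 27.3 to 49.6) and 3 left out (17.6%), although its RNA-low bulk level was 1.12 CPM. The kept cells with reads of it had a median of 6.5 reads. Its level over the pooled kept cells was 38.5 CPM with ribosomal RNA left out of the total, against 1.34 in the RNA-low bulk library on the same scale. SmedASXL_009684 stood at 31.3 CPM in the pooled cells against 1.17 in bulk. SmedASXL_012786 stood at 136 against 1.19, but cell 53 supplied 1105 of its 1967 pooled reads, and without that cell it was at 62.4. The same cell supplied 158 of 349 reads of SmedASXL_009683, which was at 24.2 in the pooled cells, or 13.8 without it, against 0.210 in bulk.

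The other 5 of the 9 lay closer to the bulk library or below it. SmedASXL_004096 was at 9.98 CPM in the pooled cells, or 6.41 without the cell with most of its reads, against 0.692 in bulk. SmedASXL_003140 was at 3.53 against 2.56, and SmedASXL_006858 was lower in the pooled cells, at 0.208 against 0.964 from 3 reads. The remaining SmedASXL_002991 and SmedASXL_002399 rested on 20 and 10 pooled reads. Single cells and bulk library of the gate thus differed in degree and direction from member to member, and the library protocols differ too.

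For the 9 members as a group, the mean share was 14.6% of kept cells and 12.4% of cells left out. For the other 136 members it was 7.86% of kept cells and 1.82% of cells left out. The members of the 9 did not all follow that mean. SmedASXL_009682 was read in 38.0% of kept cells and 17.6% of cells left out, SmedASXL_012786 in 24.1% and 11.8%, and SmedASXL_004096 in 11.4% and 0%. SmedASXL_002399 was at 3.80% and 0%, and SmedASXL_003140 was nearly level at 12.7% and 11.8%. The others went the other way. SmedASXL_009684 was read in 21.5% of kept cells and 29.4% of cells left out, and SmedASXL_009683 in 12.7% and 23.5%. SmedASXL_002991 was read in 5.06% and 11.8%, and SmedASXL_006858 in 2.53% and 5.88%. With 17 cells left out, a single cell moves such a share by 5.88 percentage points. At least 1 of the 9 was read in 53 of 79 kept cells and in 12 of 17 left out. The median of 10 kept cells for the 9 equalled the median for 56 other unnamed transcripts that had under 2.5 CPM in RNA-low and at least 50 CPM in another gate.

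Pooled over the kept cells, the members took 0.418% of the reads that were not ribosomal RNA. The same share in bulk was 3.80% in S/G2/M cells, 1.44% in G1, 0.963% in RNA-low cells and 0.852% in PM. The share per kept cell had a median of 0.267% and reached 2.79%. A single member supplied 17.2% of these pooled reads and the leading 5 supplied 39.4%, so the pooled share leans on a few transcripts.

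A kept cell had reads of a median of 11 members, from 0 to 59, and a cell left out of a median of 3, from 1 to 7. The number of members followed the number of detected transcripts over the 79 kept cells, with a Spearman correlation of 0.60, given as a description because both count detections in the same library. The 3 cells with the most members were cell 6 with 59, cell 38 with 34 and cell 43 with 31, and they had 7946, 4801 and 3038 detected transcripts. Members made up 0.743%, 0.708% and 1.02% of the transcripts detected in them, against a median of 0.516% over the kept cells. As the 3 were picked by their number of members, a share above that median is partly built in. Over the cells left out the median was 0.940% and the highest share 1.88%.

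All 3 of these cells also held reads of a cell cycle gene. Cell 6 had 23 reads of PCNA, 29 of mcm2 and 1 of CyclinB2. Cell 38 had 403 reads of CyclinB2, and cell 43 had 72 reads of PCNA. Reads of piwi-1 numbered 285, 302 and 215 in these cells. The 4 other kept cells with reads of PCNA, mcm2 or CyclinB2 held 12 to 14 members, close to the median of 11, and the 1 cell left out with such reads held 3. Among kept cells, members made up the largest share of detected transcripts in cell 10, at 1.76%. That cell held 21 members and 0 reads of PCNA, mcm2 or CyclinB2. Whether such reads go with members beyond the number of detected transcripts was not tested.

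**Figure D4:**
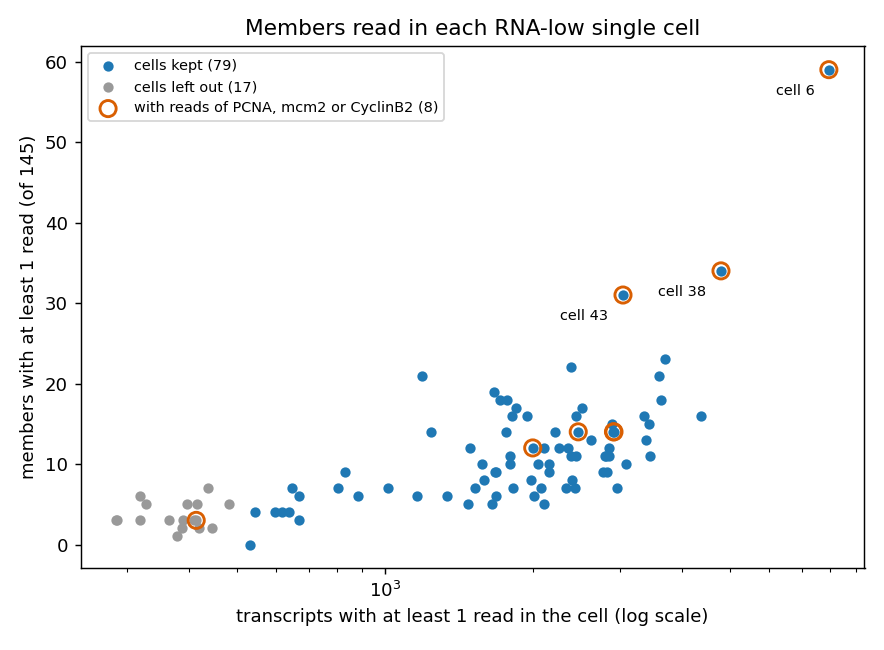
Members with at least 1 read in each of the 96 RNA-low single cells, against the number of transcripts detected in the cell (log scale), with rings around the 8 cells that held reads of PCNA, mcm2 or CyclinB2. The number of members climbs with detected transcripts, and the cells with 59, 34 and 31 members are ringed.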

How the data were processed

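Both tables hold raw read counts per transcript, as deposited by the authors, with no normalization. Per the submitters' processing notes, bcl2fastq 1.8.3 and Bowtie2 were used. How reads were counted, and on which transcripts, is not given in the sources used here. Bulk libraries were TruSeq and single cells Smart-seq2, per the labels' protocols. The bulk column headed G0 is read as RNA-low, as single-cell columns of that gate also begin with G0. CPM used pandas 2.3.3, exact intervals SciPy 1.17.1 and TMM factors edgeR 4.0.16 in R 4.3.3. Gates were compared by log2 ratio after adding 0.5 CPM, for transcripts that reached 5 CPM in one of the pair. The code for the rule and intervals was run on simulated counts. These were exact multiples of the assumed reads per fragment, so coverage of the intervals under uneven amplification was not tested. Members and lists were chosen with earlier results of these data known. Named were the 10 members of highest S/G2/M level, the 10 of largest ratio to the second gate, the 8 read in most kept cells, the 5 highest and 5 lowest in RNA-low relative to G1, 3 on each side of each threshold, named rows meeting the rule, and the 5 nearest named profiles. The other members near 0 in RNA-low, SmedASXL_017518, SmedASXL_061408 and cells 6, 10, 38, 43 and 53 were named after their values were seen.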

Additional observations from a re-analysis of the deposited data

How the results depend on the processing

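With column totals there were 145 members. TMM gave 329, median-of-ratios scaling 524 and totals without ribosomal RNA 214. A level of 10 CPM gave 430 and of 100 CPM 63, a ratio of 1.5 gave 405 and of 3 gave 28, and a lower interval bound of at least 2 gave 86. Leaving PM out of the rule, chosen after seeing the data, gave 153. Over all transcripts, TMM moves the log2 ratio of S/G2/M to G1 by 0.32 and median-of-ratios scaling by 0.48. The summed level was 33655 CPM in S/G2/M cells, 10924 in G1 and 7730 in RNA-low cells with TMM, and 36507 CPM in S/G2/M cells, 10614 in G1 and 7423 in RNA-low cells with median-of-ratios scaling. Without ribosomal RNA in the totals it was 37980 CPM in S/G2/M cells, 14441 in G1, 9631 in RNA-low cells and 8520 in PM. The median log2 ratio of S/G2/M over G1, 1.32 with column totals, was 1.63 with TMM, 1.79 with median-of-ratios scaling, 1.41 without ribosomal RNA and 1.23 with 5 CPM added. Over RNA-low it was 2.62 with median-of-ratios scaling, and over PM 2.96 with that scaling and 2.31 with 5 CPM added. For G1 over PM it was 1.11 with TMM, 1.09 with median-of-ratios scaling, 0.91 without ribosomal RNA and 1.04 with 5 CPM added. The median for RNA-low over PM changed sign, to -0.0063, without ribosomal RNA, which shifts all transcripts by -0.36. Members at least 2-fold higher in RNA-low than in PM then numbered 9, and 11 with 5 CPM added. A minimum of 5 reads lowered the median number of cells per member to 2. The share of single-cell reads was 0.385% over all 96 cells, 0.445% over cells with at least 1000 transcripts, 0.0528% of all reads and 0.267% as the median per cell. Leaving out the kept cell with the most reads of each of the 9 members near 0 in RNA-low, chosen after seeing the data, moved 6 of their pooled levels by over 1.5 times. The other 64 recomputed values stayed within 1.5 times of a count or pooled level, or within the interval of a summed level, ratio or share. They include the counts of 214 and 153 members. No paired analysis was possible because each gate has 1 library, so the gates share a single number, which only names the sample. With 1 library per gate, variation between sorts is unknown. The depth of PM, the shallowest in estimated fragments, sets the widest intervals, and members under 3 fragments in a gate have no firm ratio there.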
